A study of Mus musculus with 37 samples.

Results

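The step from the late 1-cell to the early 2-cell embryo was examined in control mouse embryos of a study on BAP1, the enzyme that takes ubiquitin off histone H2A as part of the PR-DUB complex. The members were chosen by stage and genotype label alone: 2 late 1-cell and 3 early 2-cell control libraries, 5 of the 37 libraries of the series, compared across all genes. Control embryos came from eggs of females carrying the floxed Bap1 allele on both chromosomes (Bap1flox/flox) without Cre, fertilized by B6 sperm. Maternal knockout embryos came from females with the same floxed allele and Gdf9-iCre, a recombinase driven by an oocyte promoter, also fertilized by B6 sperm. They therefore carry a paternal wild-type allele, and their 3 late 1-cell and 3 early 2-cell libraries were used to estimate spread and for the comparison of genotypes. Both kinds of embryo were cultured in KSOM medium, and libraries were made from total RNA. The labels do not say that replicates came from separate animals or cultures, so p-values measure the spread between these libraries, which may be technical.

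The late 1-cell embryo lives almost wholly on RNA and protein stored by the oocyte. By the early 2-cell stage zygotic transcription in the mouse is under way. Expression at the 2-cell stage is known for families of young, often intronless genes and for copies near endogenous retroviral promoters. In the same hours stored oocyte mRNAs are deadenylated and degraded, a process that needs both maternal factors such as BTG4 and products of the embryo's own genome.

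The promoters of 6 genes that rose are shown as examples of 2 motifs; they were picked because they hold one or the other, and no motif is common to all 6. Each window runs from 250 bases before to 50 bases after the RefSeq start (GRCm38.p6), on the strand of the gene. Capitals mark GGATTA, the core bound by bicoid-type homeodomains such as OTX2, in Zfp352, Eif4a3l1 and AF067061. In the Zscan4 genes capitals mark TATAAA and the motif known for the homeodomain protein DUX, TGATT and ATCA with any 2 bases between them. Both strands were searched, so the reverse complement of a motif is also in capitals. The windows are chr4:90218570-90218869 for Zfp352, chr7:11005495-11005794 for Zscan4c, chr7:11166099-11166398 on the reverse strand for Zscan4d, chr7:11397665-11397964 for Zscan4f, chr6:136327289-136327588 for Eif4a3l1 and chr13:120262845-120263144 for AF067061.
Zfp352: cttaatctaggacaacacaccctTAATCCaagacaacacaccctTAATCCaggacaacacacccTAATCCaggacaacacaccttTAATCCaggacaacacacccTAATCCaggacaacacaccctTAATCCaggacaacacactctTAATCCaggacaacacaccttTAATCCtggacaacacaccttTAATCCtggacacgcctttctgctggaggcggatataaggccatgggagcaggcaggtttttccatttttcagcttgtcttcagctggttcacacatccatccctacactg
Zscan4c: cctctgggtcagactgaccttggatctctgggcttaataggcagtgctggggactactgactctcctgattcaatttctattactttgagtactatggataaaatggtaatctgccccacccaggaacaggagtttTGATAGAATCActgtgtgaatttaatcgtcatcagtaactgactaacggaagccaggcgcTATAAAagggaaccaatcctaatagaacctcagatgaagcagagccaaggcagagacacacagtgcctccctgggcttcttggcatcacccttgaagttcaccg
Zscan4d: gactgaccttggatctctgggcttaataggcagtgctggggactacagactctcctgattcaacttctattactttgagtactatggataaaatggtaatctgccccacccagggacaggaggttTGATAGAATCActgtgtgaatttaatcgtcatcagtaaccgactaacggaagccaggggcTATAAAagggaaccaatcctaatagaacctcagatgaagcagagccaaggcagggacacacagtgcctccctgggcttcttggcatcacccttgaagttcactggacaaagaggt
Zscan4f: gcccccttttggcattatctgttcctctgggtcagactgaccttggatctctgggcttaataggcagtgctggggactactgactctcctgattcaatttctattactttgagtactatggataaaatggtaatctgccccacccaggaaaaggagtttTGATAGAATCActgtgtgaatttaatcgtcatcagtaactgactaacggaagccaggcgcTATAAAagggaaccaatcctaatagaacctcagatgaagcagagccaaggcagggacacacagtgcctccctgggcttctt
Eif4a3l1: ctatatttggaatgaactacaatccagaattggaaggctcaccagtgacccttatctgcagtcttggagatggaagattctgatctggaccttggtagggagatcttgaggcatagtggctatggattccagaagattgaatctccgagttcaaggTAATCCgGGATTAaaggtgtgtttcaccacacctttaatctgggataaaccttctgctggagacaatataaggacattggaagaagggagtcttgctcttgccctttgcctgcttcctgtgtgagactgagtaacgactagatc
AF067061: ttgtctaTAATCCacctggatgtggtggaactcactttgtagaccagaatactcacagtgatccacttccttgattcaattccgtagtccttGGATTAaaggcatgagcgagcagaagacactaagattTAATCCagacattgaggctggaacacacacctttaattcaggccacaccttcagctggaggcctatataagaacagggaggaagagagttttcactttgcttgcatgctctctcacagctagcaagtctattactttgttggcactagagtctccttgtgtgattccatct
The Zfp352 window held a tandem array of 9 reverse-strand GGATTA matches, whose first bases lie at -227, -206, -186, -165, -145, -124, -103, -82 and -61 relative to the start. GGATTA was present at least once in 7.16% of the 27025 promoter windows in the RefSeq table. Eif4a3l1 held 2 matches in opposite orientation, with first bases at -94 and -87, and AF067061 held 3. The DUX-type motif was present in 0.233% of all windows, and each of the 3 Zscan4 windows printed held it on the reverse strand and, further downstream, TATAAA, the core promoter sequence found in 14.2% of all windows. The first bases of these 2 matches lie at -114 and -54 in Zscan4c, -125 and -65 in Zscan4d, and -91 and -31 in Zscan4f. The Zscan4c and Zscan4d windows were 90.4% identical, Zscan4c and Zscan4f 85.1%, and Zscan4d and Zscan4f 77.5%, so these windows are not independent of each other. Because the windows were picked for these motifs, the shares over all windows are given for orientation and nothing is read from the contrast. The window of Usp17lc, another gene that rose strongly, held neither GGATTA nor the DUX-type motif. A match is a string of letters and does not show that a factor binds. Shares of motifs over whole groups of genes were not compared, because only 39 of the 151 genes that rose at least 8-fold matched a promoter window.

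Values are FPKM, mapped fragments scaled by transcript length and by library size. The number of reads behind a value is unknown and no counting error can be given. FPKM is relative to the library, so a change in the RNA content of the whole embryo is not seen, and a gene expressed in fewer embryos of a pool cannot be told apart from a lower level in each. Summed FPKM ran from 322933 to 324668 in late 1-cell and from 357363 to 387957 in early 2-cell control libraries, with 10665 to 11174 genes at 1 FPKM or more. Gm23935, a short non-coding model, took up 9.89% to 10.3% of the sum in late 1-cell and 12.8% to 19.6% in early 2-cell control libraries, highest in replicate 3. Across genes the typical SD between libraries of a group was 0.20 on the log2 scale in late 1-cell and 0.33 in early 2-cell controls. Early 2-cell control replicate 3 had the lowest summed level of the Zscan4 and Usp17l families. Early 2-cell knockout replicate 2 stood apart: across genes its correlation with late 1-cell control libraries was 0.924 and 0.927, against 0.868 to 0.887 for the other 2 knockout libraries of its stage.

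The labels were checked on markers. Bap1 itself measured 24.7 and 25.2 FPKM in late 1-cell controls and 23.5, 29.2 and 24.8 FPKM in early 2-cell controls, against 4.21 to 5.68 and 6.67 to 7.05 FPKM in the knockout libraries of these stages, with no overlap between genotypes. Of 10 markers of the 2-cell embryo, all tested, 8 were higher and 1 lower in early 2-cell controls, and of 12 oocyte and egg markers 1 was higher and 10 were lower. Of 18 markers of cumulus and granulosa cells only 2 reached the level for testing and neither passed the test. Their summed level was 6.75 and 7.91 FPKM in late 1-cell and 6.90 to 8.70 FPKM in early 2-cell controls, and Hsd3b1, Inha and Lhcgr were listed at 0 in all 11 libraries. None of 8 blood cell markers was tested, with sums of 0.532 to 1.20 FPKM. Of 12 sperm markers 3 were tested, 1 higher and 1 lower, and the spermatid genes Prm1, Tnp1, Tnp2 and Akap4 were listed at 0 in the 11 libraries. The sperm marker sum rose from 73.7 and 83.4 FPKM to between 99.5 and 113 FPKM, nearly all of it from Odf2.

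Testing covered the 12770 genes that reached 1 FPKM in 2 or more of the 11 libraries. A gene near 0 in all late 1-cell libraries passes only through early 2-cell values, so the filter favours risers among such genes in every list below. Of the 12770 genes, 2242 (17.6%) were higher and 3996 (31.3%) were lower in early 2-cell than in late 1-cell controls. These 2 shares are the background for the counts of every list below. The test was limma on log2(FPKM + 1), two-sided, with Benjamini-Hochberg adjusted p under 0.05. A fold below is a difference on that scale, where the pseudocount shrinks the change of low genes. On this scale 982 of the genes that rose and 1971 of those that fell changed at least 2-fold. At least 4-fold the balance turned, with 342 higher and 252 lower, and at least 8-fold 151 were higher and 17 lower. In 2233 of the 2242 higher genes every early 2-cell library lay above both late 1-cell libraries, and in 3988 of the 3996 lower genes every one lay below. The median difference over all genes tested was -0.17, and the split depended on the scaling: 35.9% of the genes called were higher as deposited, 26.9% after rescaling to TPM, 48.4% after quantile normalization and 53.4% after centring each library on its median, which gave 3322 higher and 2895 lower. Without late 1-cell control replicate 1 the fit called 1484 higher and 2926 lower, and without replicate 2 it called 1542 and 2924. Without early 2-cell control replicate 3 the counts were 2086 and 3854, and without knockout replicate 2 of that stage 2355 and 4142.

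**Figure D1:**
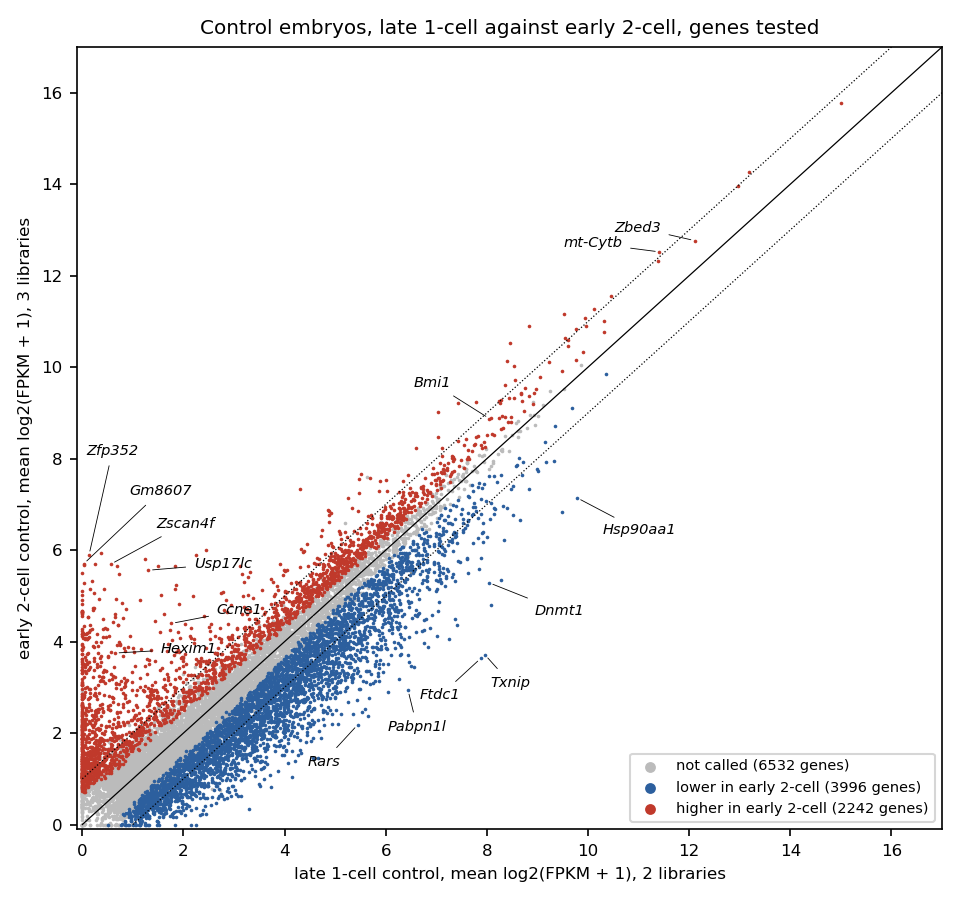
Each point is 1 of 12770 genes, plotted by its mean log2(FPKM + 1) in 2 late 1-cell control libraries (horizontal) and 3 early 2-cell control libraries (vertical), with a solid line of equality and dotted lines at a 2-fold difference. The 2242 higher genes (red) include a column of genes near 0 on the horizontal axis, such as Zfp352 and Gm8607, while the 3996 lower genes (blue) lie in a band below the line.

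Many genes that rose were not detectable or very low in the oocyte, whereas genes that fell were abundant there. Of the 982 genes that rose at least 2-fold, 174 were listed at 0 in both late 1-cell libraries. In every control library of fully grown oocytes and MII eggs 566 of the 982 were under 1 FPKM, as were 131 of the 151 that rose at least 8-fold, against 1369 of the 12770 genes tested. Genes this low before the step could enter the test through early 2-cell values alone, and the scale leaves them little room to fall. The filter thus favours risers among them, and nothing is read from this contrast. The median level of the 982 genes was 0.350 FPKM in control oocytes, 0.288 in MII eggs, 0.284 in late 1-cell, 5.61 in early 2-cell and 10.2 in late 2-cell embryos. For the 1971 genes that fell at least 2-fold the medians were 18.1, 17.5, 14.7, 4.41 and 4.53 FPKM at the same stages. That most of their fall lay in this 1 step follows from the choice of genes. The genes were chosen on the late 1-cell and early 2-cell values. Neighbouring stages share RNA, so the levels at the other 3 stages are not independent of the choice either.

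The largest rise among named genes was that of Zfp352, a zinc finger gene known from the 2-cell stage, at chr4:90218820-90225702 (positions are from GENCODE M21, GRCm38). It measured 0.0762 and 0.115 FPKM in late 1-cell libraries and 64.0, 54.9 and 56.4 FPKM in early 2-cell libraries. The groups did not overlap, and the difference was 5.76 ± 0.29 (SE) on the log2 scale with an adjusted p of 2.11e-07 in limma. AF067061, a 2-cell gene of unknown function on chromosome 13, measured 0.0555 and 0.301 FPKM and then 29.8, 33.2 and 33.7 FPKM, a difference of 4.82 ± 0.62. Eif4a3l1, a relative of the exon junction helicase gene Eif4a3, measured 0.267 and 0.0774 FPKM and then 25.4, 31.2 and 20.7 FPKM, a difference of 4.50 ± 0.29. It was transient, with a mean of 1.91 FPKM in late 2-cell controls, whereas Zfp352 was still at 32.7 FPKM and AF067061 at 22.6 FPKM. Obox4-ps35 was listed at 0 in both late 1-cell libraries, in oocytes and in eggs, and measured 39.5, 38.6 and 24.0 FPKM in early 2-cell libraries. The other 6 of the 10 genes that rose most all belong to the Zscan4 family.

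**Figure D2:**
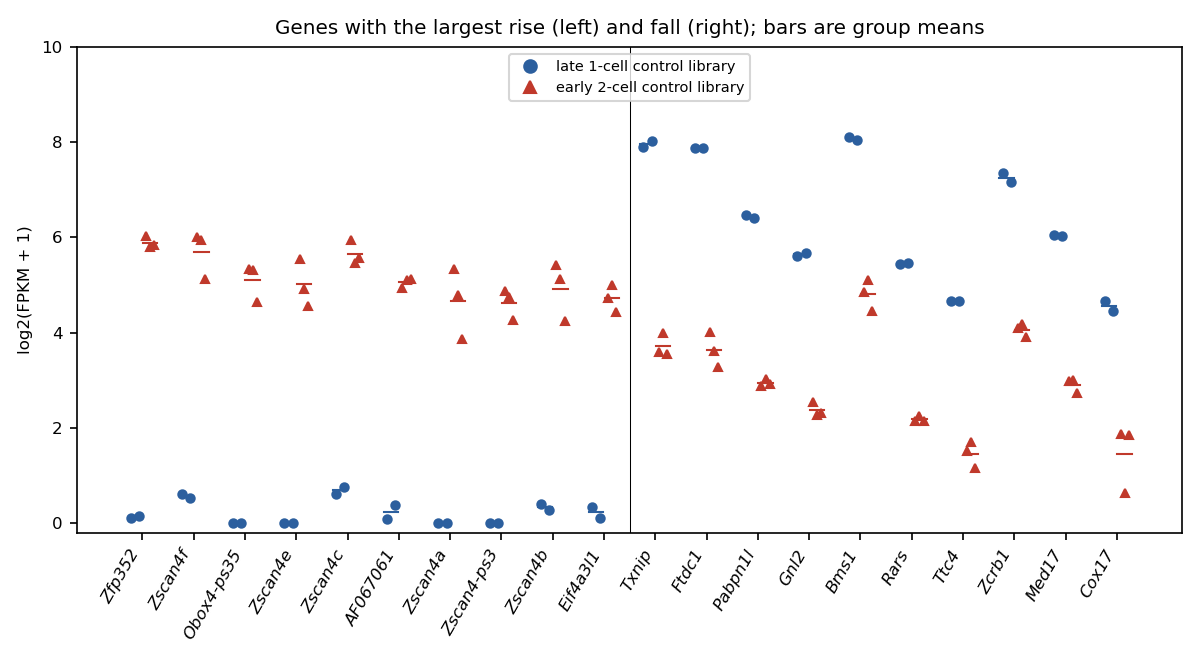
Points are log2(FPKM + 1) per control library of the 10 named genes with the largest rise (left) and the 10 with the largest fall (right), late 1-cell as circles and early 2-cell as triangles, with bars at group means. The genes were chosen for non-overlapping groups, so the gap between the 2 stages follows from the choice, and the spread within a stage is what the plot adds.

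Zscan4 genes encode SCAN-domain zinc finger proteins known for telomere maintenance and for marking the 2-cell-like state of embryonic stem cells. All 9 copies named in the table lie on chromosome 7 and were tested; 8 rose, none fell, and the median difference was 4.63 against -0.17 over all genes tested. Their summed level was 17.2 and 18.2 FPKM in late 1-cell libraries and 388, 315 and 212 FPKM in early 2-cell libraries, and it was back to 53.4 and 57.0 FPKM in late 2-cell controls. Zscan4f measured 0.525 and 0.432 FPKM and then 63.8, 60.3 and 33.9 FPKM (5.13 ± 0.60, adjusted p of 3.78e-05 in limma). Zscan4c measured 0.527 and 0.692 FPKM and then 60.7, 43.1 and 46.4 FPKM (4.97 ± 0.38). Zscan4d, the copy known as the main 2-cell form, measured 1.82 and 1.80 FPKM and then 60.1, 53.3 and 37.2 FPKM (4.16 ± 0.33). The exception was Zscan4-ps1, at 14.05 and 15.1 FPKM and then 25.2, 20.97 and 11.5 FPKM, with overlapping groups and an adjusted p of 0.611 in limma. That copy held most of the family's RNA before the rise, with 12.9 FPKM in oocytes and 11.1 FPKM in eggs. Between 48.4% and 90.1% of the 50-base exonic words of these genes also occur in other genes, so how reads were divided among the copies is uncertain.

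A second cluster on chromosome 12 rose further in sum than the Zscan4 family. It was singled out after the values were seen, as the 1 Mb windows with the most genes that rose at least 8-fold. In the region chr12:87106861-88461724, 42 genes were tested, most of them predicted models. The coding sequence of Eif1ax, the X-linked gene of translation initiation factor eIF1A, was compared with their exons by translated search with an E-value limit of 1e-10, and 20 of the 42 matched, with 87.1% to 94.4% of aligned amino acids identical. Of these 20 genes 19 rose, none fell, and 18 rose at least 8-fold. Of the 22 genes without a match 9 rose. The 20 matching genes summed to 1.79 and 3.64 FPKM in late 1-cell libraries and to 673, 532 and 395 FPKM in early 2-cell libraries. Their sum was 0.822 to 1.79 FPKM in oocytes and eggs of controls and 144 and 153 FPKM in late 2-cell controls. In late 1-cell knockouts it was 0.146 to 2.36 FPKM. A matching gene could thus hardly enter the test except through early 2-cell values. The count of 19 that rose is largely set by this filter. Gm8607 measured 0.0394 and 0 FPKM and then 64.1, 61.6 and 33.5 FPKM (5.67 ± 0.41), and Gm5662 measured 0.0321 and 0 FPKM and then 61.2, 52.5 and 38.3 FPKM (5.64 ± 0.50). The 1 matching gene that did not pass the test, Gm10264, measured 0 in both late 1-cell libraries and 0.188, 1.11 and 2.22 FPKM afterwards (adjusted p of 0.0728 in limma). The X-linked Eif1ax itself fell, from 13.05 and 13.9 FPKM to 4.76, 5.43 and 4.09 FPKM. As in the Zscan4 family, 77.9% of the 50-base exonic words of Gm5662 and 70.9% of those of Gm8607 occur in other genes, so single copies are uncertain.

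Usp17l genes encode deubiquitinating enzymes of the DUB family. All 6 copies in the table rose, from a sum of 2.41 and 4.35 FPKM to 139.5, 122.5 and 86.8 FPKM. Usp17lc measured 1.26 and 1.70 FPKM and then 55.1, 52.9 and 33.7 FPKM (4.25 ± 0.28), and Usp17le measured 0.284 and 0.904 FPKM and then 27.2, 23.99 and 16.99 FPKM (3.90 ± 0.28). The Tdpoz genes encode TRAF- and BTB-domain proteins, and the Tcstv genes are 2-cell genes of chromosome 13. Of 11 listed members 8 were tested and all 8 rose. Members near 0 before the step could enter the test only through early 2-cell values. Tdpoz8 measured 0.0310 and 0 FPKM and then 19.3, 17.8 and 14.9 FPKM (4.16 ± 0.48). Tcstv3 was already present, at 3.44 and 2.18 FPKM, and reached 23.8, 31.3 and 27.6 FPKM (2.92 ± 0.26).

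The Obox homeobox family held both stored and newly made members. Of 55 genes listed, 22 were tested, of which 16 rose and 1 fell, with a median of 1.60. Obox3 measured 0.440 and 0.156 FPKM and then 17.4, 12.9 and 15.1 FPKM (3.63 ± 0.56), and Obox6 measured 0.0887 and 0.144 FPKM and then 8.31, 6.23 and 6.19 FPKM (2.81 ± 0.24). Obox6 went on to 103 FPKM in late 2-cell controls. The stored member Obox2 fell from 456 FPKM in both late 1-cell libraries to 154, 187 and 140.5 FPKM (-1.51 ± 0.20). Obox5 was abundant before the step, at 371 and 369.8 FPKM, and measured 617, 606 and 695 FPKM after it (0.78 ± 0.10). Obox1 had 469.7 and 498 FPKM and then 548, 623 and 590.2 FPKM (0.28 ± 0.09), a rise whose sign turned after quantile normalization (-0.18) and which did not pass without late 1-cell replicate 1 or 2 or early 2-cell replicate 2. The Obox1 difference was 0.09 (adjusted p of 0.404) after rescaling to TPM, and it did not pass without the trend (0.0741). These stored members made up most of the family's sum, which moved from 1368 and 1380 FPKM to between 1542 and 1617 FPKM.

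Duxf3, the gene of the pioneer factor DUX, which is known to switch on Zscan4 and other 2-cell genes, was not called in controls. It measured 2.78 and 4.27 FPKM in late 1-cell and 5.52, 3.31 and 5.75 FPKM in early 2-cell libraries, with overlapping groups (0.36 ± 0.26, adjusted p of 0.26 in limma). Its level was highest at these 2 stages: the control mean was 0.0265 FPKM in oocytes, 0.0218 in eggs and 0.457 in late 2-cell embryos. AW822073, the neighbouring gene of the Dux locus, measured 3.40 and 3.76 FPKM and then 4.94, 5.95 and 5.88 FPKM (0.52 ± 0.18, adjusted p of 0.0327), a call that was lost when any control library but early 2-cell replicate 1 was left out, and also after rescaling to TPM (adjusted p of 0.129), with the replicate block (0.0586), with stage weights (0.0501) and without the filter on low values (0.0631). 

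Among Pramel and Pramef genes, which encode leucine-rich repeat proteins, 5 of 9 tested rose and 2 fell. Pramef25 measured 0.0895 and 0.134 FPKM and then 19.0, 14.8 and 20.5 FPKM (4.09 ± 0.24), while Pramef12, present in oocytes, fell from 154 and 150.2 FPKM to 63.3, 77.4 and 76.2 FPKM (-1.07 ± 0.16). Of 13 other genes associated with the early 2-cell stage 7 rose and 4 fell. Gabpa, the ETS factor of the GABP complex, measured 0.123 and 0.305 FPKM and then 18.8, 17.1 and 10.2 FPKM (3.71 ± 0.39). Tmem92 measured 0.824 and 0.822 FPKM and then 35.1, 18.2 and 24.6 FPKM (3.84 ± 0.38), and Ddit4l 0.185 and 0.135 FPKM and then 10.6, 6.31 and 8.59 FPKM (3.01 ± 0.23). The 4 that fell were all abundant in late 1-cell embryos, such as Sp110, at 199 and 193 FPKM and then 115, 114 and 106 FPKM, and Arg2, the mitochondrial arginase, at 96.2 and 100.4 FPKM and then 28.6, 19.3 and 22.5 FPKM. The other 2 were Klf17 and Nelfa, whose falls of 0.42 and 0.35 on the log2 scale were not called after centring on the median.

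**Figure D3:**
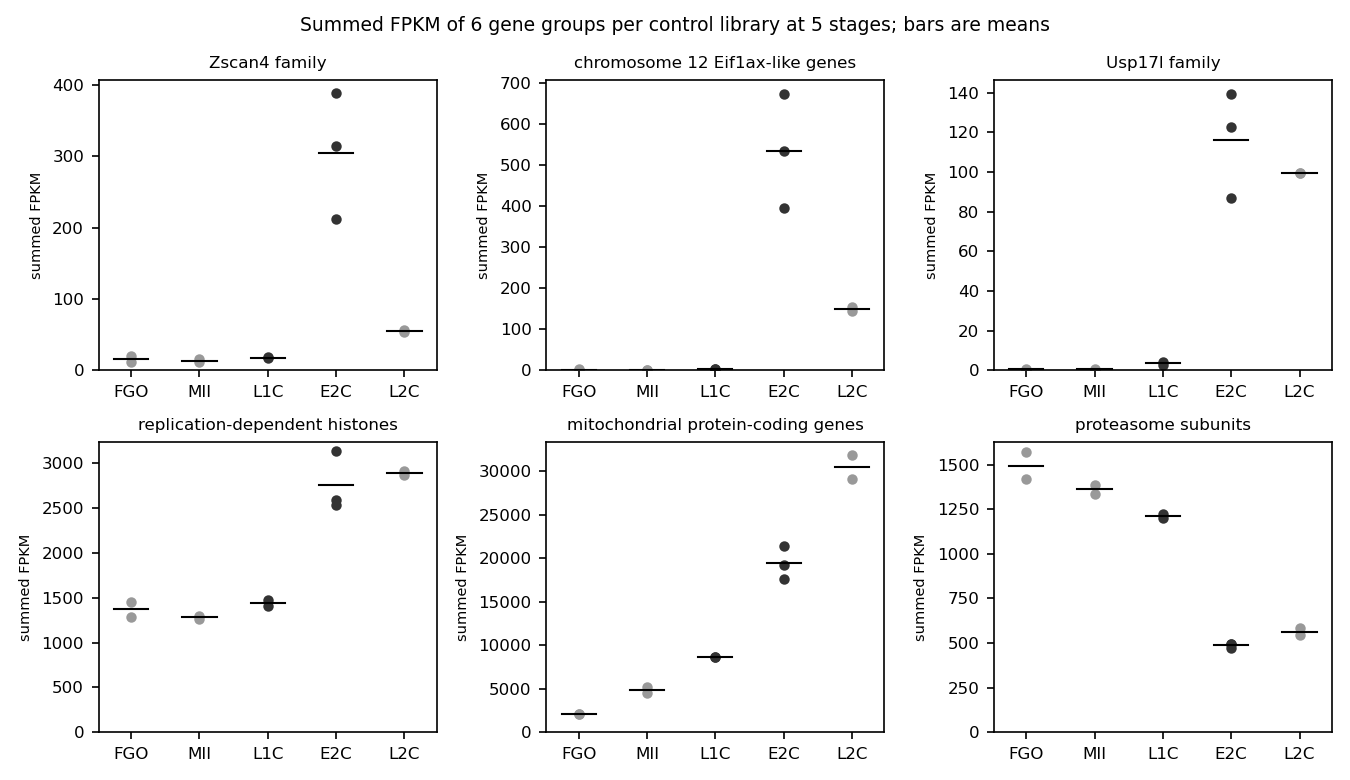
Summed FPKM per control library of 6 gene groups by stage in order of development, from oocytes (FGO) and eggs (MII) through the late 1-cell stage (L1C) to 2-cell embryos, early (E2C) and then late (L2C), with bars at means. Zscan4 and chromosome 12 Eif1ax-like genes peak at the early 2-cell stage, histone and mitochondrial genes rise and stay high, and proteasome subunits fall in this step.

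Among the genes tested, those that rose differed from the rest in build, but the filter on low values bears on this contrast. Of those that rose at least 2-fold 40.7% had a single exon in every annotated transcript, against 12.1% of all genes tested and 2.18% of those that fell at least 2-fold. Annotated pseudogenes made up 24.4% of them and 34.4% of those that rose at least 8-fold, against 8.92% of all genes tested and 2.18% of those that fell. Their median exonic length was 1360.5 bases, against 3673 bases over all genes tested and 3598 bases for those that fell at least 2-fold. Among protein-coding genes alone the median number of exons, taken at the transcript with the most, was 4 for those that rose at least 2-fold, 10 over all tested and 9 for those that fell at least 2-fold. Over all gene types these medians were 2, 8 and 9. Of the 982 genes that rose at least 2-fold, 566 were under 1 FPKM in every control oocyte and egg library. Genes this low before the step could enter the test through early 2-cell values alone. Single-exon genes and pseudogenes among them could thus hardly appear except as risers. Copies of a family, such as Zscan4, were also counted as separate genes. These shares and medians therefore describe the genes tested, and nothing is read from the contrast. Whether length bears on the calls was not tested.

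Some of the genes that rose strongly were neighbours. Of 2138 windows of 1 Mb with tested genes, 14 held at least 3 of the genes that rose at least 8-fold. These 14 windows held 66 of the 151 (43.7%) and 219 of the 12757 tested genes with a position (1.72%). The windows were picked for holding such genes, so these counts describe them and are no test of clustering. After the chromosome 12 cluster, with 11 and 8 such genes in its 2 windows, the fullest were 11 to 12 Mb on chromosome 7 with 6 Zscan4 genes and 120 to 121 Mb on chromosome 13 with AF067061 and 4 neighbours. One window on chromosome 18 also held 5. The Obox cluster at 15 to 16 Mb on chromosome 7 held 4, and the Tdpoz region at 93 to 94 Mb on chromosome 3, the Pramef region at 143 to 144 Mb on chromosome 4 and the Usp17l region at 104 to 105 Mb on chromosome 7 held 3 each.

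The deepest falls among named genes were those of abundant oocyte transcripts. On the log2(FPKM + 1) scale a low gene has little room to fall, and named genes needed a mean of 5 FPKM, so this follows largely from the choice. Txnip, the thioredoxin-interacting inhibitor of glucose uptake, measured 237 and 261 FPKM in late 1-cell and 11.1, 14.9 and 10.7 FPKM in early 2-cell libraries (-4.25 ± 0.21, adjusted p of 1.80e-07 in limma). Ftdc1 fell from 235 and 234 FPKM to 15.2, 11.2 and 8.65 FPKM (-4.25 ± 0.19). Pabpn1l encodes an oocyte-specific poly(A)-binding protein known to be needed for maternal mRNA decay. It fell from 87.6 and 84.1 FPKM to 6.34, 7.16 and 6.53 FPKM (-3.50 ± 0.16). Control means of Txnip, Ftdc1 and Pabpn1l were 326, 413 and 128 FPKM in oocytes, 311, 375 and 118 FPKM in eggs, and 249, 234 and 85.9 FPKM in late 1-cell embryos, so all 3 were already lower at the late 1-cell stage than in eggs. None had returned in late 2-cell controls, at 11.97, 2.45 and 1.51 FPKM.

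The other 7 of the 10 that fell most serve general cell functions. Gnl2 and Bms1 encode GTPases of ribosome assembly, and Bms1 fell from 274 and 262 FPKM to 28.1, 33.4 and 20.9 FPKM (-3.26 ± 0.27). Rars, the arginyl-tRNA synthetase gene, fell from 42.2 and 43.0 FPKM to 3.44, 3.76 and 3.42 FPKM (-3.26 ± 0.22) and was back at 28.5 FPKM in late 2-cell controls. Ttc4, Zcrb1, Med17, a Mediator subunit gene, and Cox17, a copper chaperone gene of cytochrome oxidase, differed by between -3.21 and -3.12.

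Of 20 genes for the zona pellucida, the egg surface and oocyte transcription 14 fell and none rose, with a median of -0.95. Zp3, the sperm-binding zona protein gene, measured 26.5 and 26.2 FPKM and then 9.08, 7.44 and 9.90 FPKM (-1.49 ± 0.21). Its largest loss was earlier, from 431 FPKM in oocytes to 81.3 in eggs. Nobox, the oocyte homeobox regulator, did the opposite: it held 166, 176 and then 134 and 131 FPKM up to the late 1-cell stage and fell to 42.5, 46.3 and 40.6 FPKM in this step (-1.601 ± 0.13). Oosp2 and Oas1d fell by 1.63 and 1.53 on the log2 scale.

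Among 16 genes of the subcortical maternal complex and the NLRP family, which the oocyte supplies for cleavage, 9 fell and 1 rose. Padi6 fell from 236 and 221 FPKM to 44.5, 53.02 and 44.5 FPKM (-2.25 ± 0.18), Tle6 from 101 and 97.5 FPKM to 23.0, 21.8 and 26.9 FPKM (-2.02 ± 0.23) and Ooep from 139 and 139.5 FPKM to 42.8, 44.7 and 44.4 FPKM (-1.64 ± 0.14). The riser, Zbed3, was the most abundant member, at 4399 and 4459.9 FPKM and then 6666, 6386 and 7932 FPKM (0.65 ± 0.12), and its difference was 0 after quantile normalization. With Zbed3 included the sum of the list was higher in early 2-cell libraries, 7818 to 9231 FPKM against 6531 and 6571 FPKM, while its median difference was -0.72.

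Meiotic cell cycle regulators fell in 15 and rose in 5 of 30 cases. Bub1b, a spindle checkpoint kinase gene, measured 60.3 and 57.7 FPKM and then 14.6, 16.4 and 11.3 FPKM (-2.003 ± 0.20). Mos, the kinase gene of meiotic arrest, fell from 4.75 and 6.47 FPKM to 1.26, 1.23 and 1.33 FPKM (-1.53 ± 0.26), having lost most of its 78.8 FPKM of the oocyte before. Wee2, the oocyte inhibitor of CDK1, rose slightly, from 199 and 189 FPKM to 249, 234 and 284 FPKM (0.39 ± 0.10), a call lost without late 1-cell replicate 2 (adjusted p of 0.0631 in limma) and after rescaling to TPM (0.21, adjusted p of 0.054). Cdc25a fell (-2.32 ± 0.14), and Cdc25c, from 2.04 and 1.14 FPKM to 6.54, 3.51 and 4.17 FPKM, rose (1.14 ± 0.26), also not without that library (adjusted p of 0.0581).

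Of 21 genes that store or control oocyte mRNAs 10 fell and 6 rose. Zar1 fell from 139.9 and 130.0 FPKM to 32.4, 34.7 and 47.5 FPKM (-1.81 ± 0.22), its relative Zar1l from 166 and 161 FPKM to 20.4, 25.5 and 19.4 FPKM (-2.87 ± 0.17), and Cpeb1, the cytoplasmic polyadenylation factor, from 43.2 and 45.4 FPKM to 11.3, 13.7 and 13.1 FPKM (-1.73 ± 0.13). Tacc3 fell most in this list (-2.93 ± 0.21). Ybx2, the abundant RNA packaging protein, measured 139.6 and 129.8 FPKM and then 163, 171 and 153 FPKM (0.27 ± 0.09), a call lost without any 1 of 4 control libraries, all but early 2-cell replicate 3. The difference for Ybx2 was 0.08 (adjusted p of 0.559) after rescaling to TPM, and it also did not pass under TPM without short genes, without the filter on low values or without the trend.

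Among genes of the machinery that removes these mRNAs the share that fell was close to the 31.3% over all genes tested. Of 36 tested genes of deadenylation and decay 10 rose and 12 fell, with a median of 0.10, and after centring on the median 17 rose and 6 fell. Btg4, the adaptor that brings the CCR4-NOT deadenylase to maternal mRNAs, measured 1251 and 1283 FPKM and then 1737, 1881 and 1634 FPKM (0.46 ± 0.10), a difference that was -0.38 after quantile normalization. Cnot7, a catalytic subunit, measured 209 and 223 FPKM and then 317, 319 and 313 FPKM (0.55 ± 0.09). The decapping activator Dcp1a fell from 153 and 142 FPKM to 58.7, 46.7 and 38.8 FPKM (-1.62 ± 0.17). Pabpc1, the somatic cytoplasmic poly(A)-binding protein, rose from 2.50 and 2.73 FPKM to 12.1, 7.30 and 9.36 FPKM (1.53 ± 0.23), and its oocyte counterpart Pabpc1l fell from 72.8 and 71.8 FPKM to 45.2, 51.6 and 39.8 FPKM (-0.66 ± 0.13). In late 2-cell controls the order of the pair was reversed, with 122 FPKM of Pabpc1 and 6.91 FPKM of Pabpc1l.

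Of 22 heat shock and chaperone genes 5 were higher and 7 lower, near the shares over all genes tested (17.6% and 31.3%). Hsp90aa1 fell from 881 and 878 FPKM to 159, 171 and 101 FPKM (-2.64 ± 0.24), and Hspa8, Dnaja1 and Hsph1 fell by 1.24, 1.90 and 1.31 on the log2 scale. Hspa1a, an early marker of zygotic transcription, measured 0.392 and 0.672 FPKM and then 2.51, 2.72 and 1.35 FPKM (1.04 ± 0.27), a call that was lost without late 1-cell replicate 1. Hspa2 measured 2.41 and 2.23 FPKM and then 20.4, 16.8 and 16.9 FPKM (2.52 ± 0.34), and the co-chaperone gene Bag3 0 and 0.109 FPKM and then 6.18, 4.37 and 4.26 FPKM (2.48 ± 0.35).

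**Figure D4:**
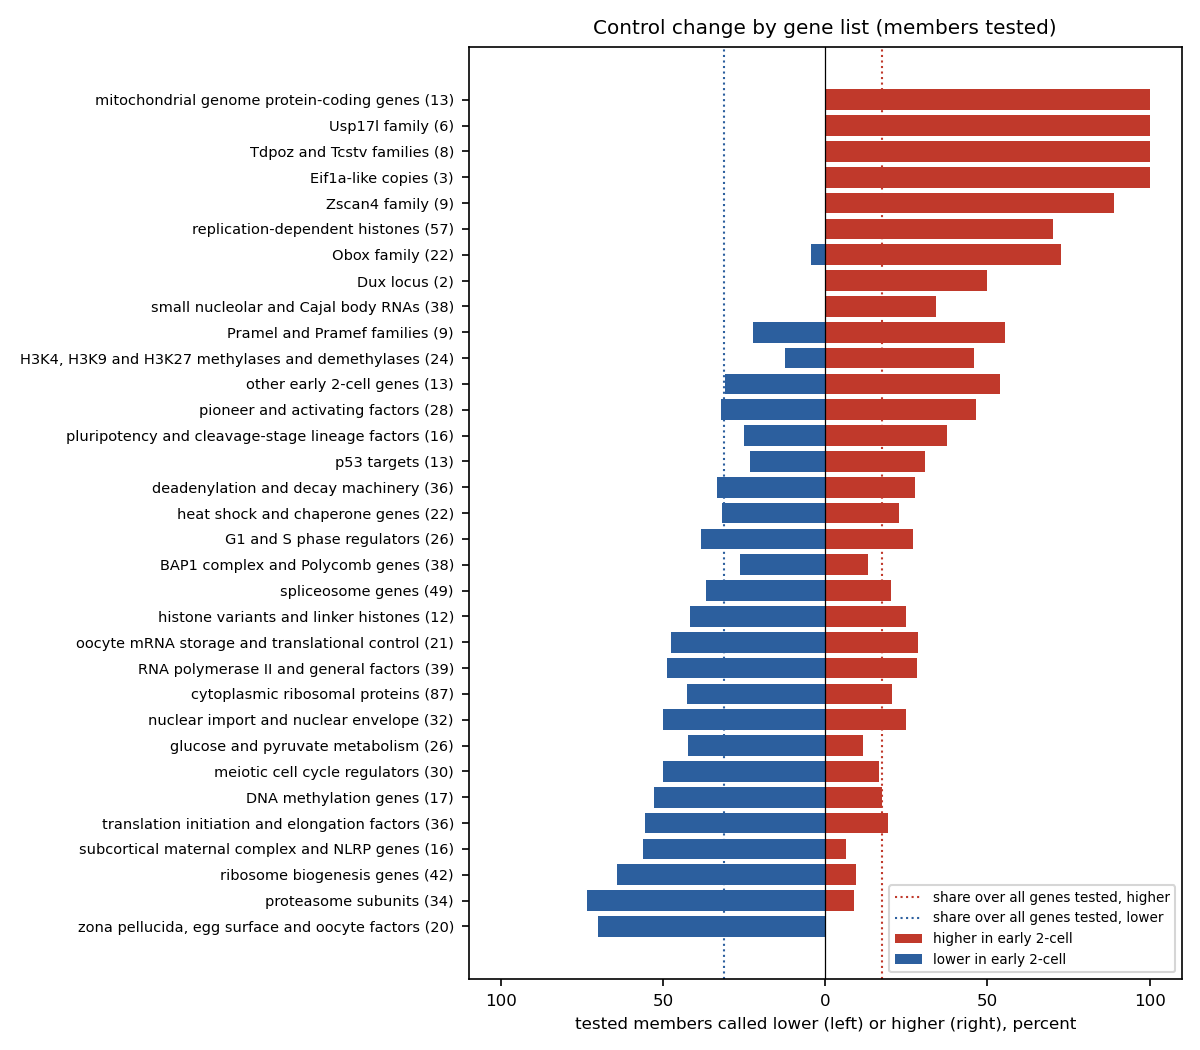
Bars give the percent of tested members of 33 gene lists called higher (right, red) or lower (left, blue) in early 2-cell than in late 1-cell controls, with the number tested in brackets and dotted lines at 17.6% and 31.3%, the shares over all genes tested. Zona, proteasome and ribosome biogenesis lists lie at the lower end and 2-cell gene families, mitochondrial genes and histones at the upper end.

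Proteasome subunits, of the protease that clears ubiquitin-tagged proteins, fell in most cases. Of 34 tested 25 fell and 3 rose, with a median of -1.33, and the summed level went from 1199.5 and 1224 FPKM to 474, 496 and 497 FPKM. Psmd12, a lid subunit gene, fell from 46.3 and 45.7 FPKM to 8.45, 6.85 and 8.30 FPKM (-2.41 ± 0.18), and Psma7, a core subunit gene, from 127 and 132 FPKM to 22.4, 22.2 and 29.1 FPKM (-2.36 ± 0.18). Psmb3, which rose (1.06 ± 0.32), did not pass without late 1-cell replicate 2, nor without early 2-cell replicate 3.

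Of 42 ribosome biogenesis genes 27 fell and 4 rose, with a median of -0.81. Utp4 fell from 41.4 and 45.7 FPKM to 6.55, 7.41 and 6.44 FPKM (-2.51 ± 0.15) and Ftsj3 from 48.2 and 48.1 FPKM to 6.57, 8.99 and 7.47 FPKM (-2.51 ± 0.17). Nop16 was listed at 0 in both late 1-cell libraries and measured 2.71, 3.47 and 1.02 FPKM afterwards, on its way to 28.9 FPKM in late 2-cell controls. Cytoplasmic ribosomal protein genes moved in both directions, 18 up and 37 down of 87, and the list's sum fell from 2211 and 2153 FPKM to between 1350 and 1392 FPKM before it stood at 4914 and 4957 FPKM in late 2-cell controls. Rpl19 fell from 86.2 and 88.5 FPKM to 16.9, 18.3 and 13.4 FPKM (-2.37 ± 0.23). Rpsa, which had dropped from 76.3 FPKM in oocytes to 4.50 in eggs, rose from 1.46 and 1.52 FPKM to 11.4, 11.3 and 10.6 FPKM (2.29 ± 0.17). Ribosomal protein genes have many processed copies, and 57.4% of the exonic words of Rpl19 and 28.8% of those of Rpsa occur elsewhere. Of 36 translation factors 20 fell and 7 rose, led by Eif3e (-2.65 ± 0.19) and Eif4g2 (0.87 ± 0.12).

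Of 39 genes of RNA polymerase II and the general factors 19 fell and 11 rose. Both shares lay above those over all genes tested (31.3% lower and 17.6% higher), and only the balance of lower to higher was alike. Polr2k fell from 25.3 and 20.3 FPKM to 1.71, 3.08 and 3.65 FPKM (-2.67 ± 0.30) and Polr2d, another small subunit, by 2.59 on the log2 scale. Polr2a, the largest subunit, rose from 5.99 and 5.41 FPKM to 10.8, 9.73 and 12.9 FPKM (0.85 ± 0.17). Hexim1, the inhibitor of the elongation factor P-TEFb, had the largest rise of the list, from 0.521 and 0.608 FPKM to 13.02, 13.7 and 10.8 FPKM (3.10 ± 0.25), and it was all but absent from oocytes and eggs, at 0.0351 FPKM and listed at 0. Of 49 spliceosome genes 18 fell and 10 rose, a balance that turned after centring on the median, with 15 and 17. Snrpf, a core Sm protein gene, rose from 62.6 and 64.3 FPKM to 178, 206 and 169 FPKM (1.52 ± 0.14), and Sf3a3 fell from 54.8 and 55.0 FPKM to 13.96, 10.01 and 12.8 FPKM (-2.09 ± 0.18).

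Replication-dependent histone genes rose in 40 of 57 tested cases and none fell. Their transcripts end in a stem-loop in place of a poly(A) tail, and total RNA libraries record them. The sum of the list was 1409 and 1471 FPKM in late 1-cell and 2587, 2532 and 3136 FPKM in early 2-cell libraries, and 2915 and 2871 FPKM in late 2-cell controls. Hist1h2an measured 1.11 and 2.50 FPKM and then 23.4, 21.6 and 17.8 FPKM (3.01 ± 0.27), with 85.8% of its exonic words shared with other genes. Without late 1-cell replicate 1 the count was 27 and without replicate 2 it was 30. Among histone variants and linker histones 3 of 12 rose and 5 fell. H2az1 rose from 2.21 and 2.68 FPKM to 13.4, 13.5 and 19.9 FPKM (2.25 ± 0.25), and the oocyte linker histone H1f8 fell from 279 and 281 FPKM to 83.4, 104.99 and 198 FPKM (-1.22 ± 0.34), a call lost without either late 1-cell library.

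Of 17 DNA methylation genes 9 fell and 3 rose. Dnmt1, the maintenance methyltransferase gene, fell from 256 and 269 FPKM to 34.5, 39.6 and 40.2 FPKM (-2.76 ± 0.15), after 684 FPKM in oocytes and 357 in eggs. Its partner Uhrf1 fell from 205 and 209.6 FPKM to 107, 117 and 102 FPKM (-0.93 ± 0.19), and Tet3, the dioxygenase gene of paternal demethylation, from 368 and 362 FPKM to 182, 179.7 and 146 FPKM (-1.11 ± 0.15). Dppa3, which protects the maternal genome from demethylation, measured 949 and 956 FPKM and then 1193, 1364 and 1283 FPKM (0.42 ± 0.10), and this difference was -0.38 after quantile normalization and 0.24 (adjusted p of 0.0741 in limma) after rescaling to TPM.

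Genes of the BAP1 complex and of Polycomb, which place or remove ubiquitin on histone H2A or methylate H3K27, were called at rates near those over all genes tested (17.6% higher and 31.3% lower). Of 38 tested 5 rose, 10 fell and 23 were not called, and after centring on the median 14 rose and 8 fell. Bmi1 rose from 264 and 263 FPKM to 493, 497 and 421 FPKM (0.83 ± 0.10) and Suz12 from 162 and 161 FPKM to 248, 271 and 244 FPKM (0.65 ± 0.10). Pcgf6 and Kdm2b, of the variant Polycomb repressive complexes, fell by 1.52 and 0.98 on the log2 scale. Among methylases and demethylases of H3K4, H3K9 and H3K27, 11 of 24 rose and 3 fell, against 7 and 9 after rescaling to TPM. Kdm5b, a demethylase of H3K4, rose from 0.725 and 0.795 FPKM to 8.57, 7.09 and 5.59 FPKM (2.18 ± 0.24) and reached 57.1 FPKM in late 2-cell controls. Setdb1, a methylase of H3K9, fell from 72.5 and 79.6 FPKM to 30.9, 28.1 and 28.9 FPKM (-1.35 ± 0.15).

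For the lists that follow, the shares over all genes tested were 17.6% higher and 31.3% lower. Of 28 pioneer and activating factors 13 rose and 9 fell, against 9 and 11 after rescaling to TPM. Klf5 rose from 0.422 and 0.165 FPKM to 5.78, 2.78 and 2.53 FPKM (1.80 ± 0.34), and Nfya, a subunit of the CCAAT-binding factor, fell from 94.0 and 95.1 FPKM to 23.4, 25.8 and 20.2 FPKM (-1.99 ± 0.14). Of 16 pluripotency and lineage factors 6 rose and 4 fell, with Esrrb down from 11.6 and 15.5 FPKM to 4.30, 4.46 and 2.62 FPKM (-1.62 ± 0.31). Of 26 regulators of G1 and S phase 7 rose and 10 fell, against 9 and 8 after centring on the median. Ccne1, the cyclin E gene, rose from 2.44 and 2.33 FPKM to 25.2, 16.4 and 19.5 FPKM (2.64 ± 0.24) and stood at 154 FPKM in late 2-cell controls, and Gmnn, the inhibitor of replication licensing, rose from 36.3 and 35.3 FPKM to 67.6, 66.5 and 73.3 FPKM (0.93 ± 0.12). The licensing genes Cdc6 and Mcm3 fell by 1.88 and 1.57 on the log2 scale. Among 13 targets of p53, 4 rose and 3 fell. Plk2 rose from 1.10 and 1.31 FPKM to 5.95, 8.61 and 6.74 FPKM (1.87 ± 0.29). Cdkn1a, the gene of the inhibitor p21, measured 0.549 and 0.995 FPKM and then 4.51, 3.41 and 3.41 FPKM (1.43 ± 0.37), and its call was lost without late 1-cell replicate 1.

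All 13 protein-coding genes of the mitochondrial genome rose, with a median of 1.16. They held 2.68% and 2.69% of summed FPKM in late 1-cell and 4.56% to 5.95% in early 2-cell libraries. mt-Nd4l measured 44.8 and 41.9 FPKM and then 196, 197 and 168 FPKM (2.08 ± 0.21). mt-Cytb was the larger in amount, at 2676 and 2768 FPKM and then 6622, 5886 and 5201 FPKM (1.11 ± 0.19), a difference that was -0.15 after quantile normalization, under which 7 of the 13 genes were called. The list's rise ran through the whole series of stages, from 2119 FPKM in oocytes to 4881 in eggs, and to 29110 and 31849 FPKM in late 2-cell controls. Small nucleolar and Cajal body RNAs, which guide rRNA and snRNA modification, rose in 13 of 38 tested cases and none fell. Snord21 measured 3.15 and 6.17 FPKM and then 52.8, 79.4 and 61.1 FPKM (3.56 ± 0.40). FPKM is uncertain for genes this short.

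Genes of glucose and pyruvate use fell in 11 and rose in 3 of 26 cases, with 31.3% lower and 17.6% higher over all genes tested. Pdha1, the pyruvate dehydrogenase subunit gene, fell from 20.4 and 20.7 FPKM to 11.2, 7.67 and 5.58 FPKM (-1.28 ± 0.22), and Ldha, the lactate dehydrogenase gene, rose from 0.256 and 0.494 FPKM to 3.75, 2.64 and 3.12 FPKM (1.60 ± 0.23). Of 32 genes of nuclear import and the nuclear envelope 16 fell and 8 rose, beside the same shares over all genes tested. After centring on the median 9 fell and 9 rose. The importin gene Kpna1 rose from 0.222 and 0.143 FPKM to 7.99, 4.43 and 7.16 FPKM (2.64 ± 0.23) and the pore gene Nup107 fell from 61.3 and 68.9 FPKM to 11.9, 12.2 and 7.72 FPKM (-2.53 ± 0.23). Slc34a2, a phosphate transporter gene, measured 0.206 and 0.462 FPKM and then 24.5, 21.6 and 18.8 FPKM (4.08 ± 0.37) and had 174 FPKM in late 2-cell controls. It belongs to none of the lists and was chosen after its values were seen.

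The same step in maternal knockout embryos called 2143 genes higher (16.8%) and 3939 lower (30.8%) of the 12770. Of the genes called in controls, 1533 were also higher and 3102 also lower in knockouts, and 15 were called in opposite directions. Across genes the changes of the 2 genotypes correlated with a Pearson r of 0.866 and a Spearman rho of 0.842 (n = 12770 genes, which are not independent replicates). The 151 genes that rose at least 8-fold in controls had a median change of 3.73 in controls and 2.83 in knockouts, but they were chosen on the control values. Zscan4 genes summed to 270, 68.1 and 216 FPKM in early 2-cell knockout libraries, below or within the control values of 388, 315 and 212 FPKM, with replicate 2 the lowest.

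The difference between genotypes was itself tested for every gene. In 16 genes (0.125%) the change was higher and in 27 (0.211%) lower in knockouts, at an adjusted p under 0.05 in limma. At an unadjusted p under 0.05 there were 972 and 909. These counts depended on the libraries and the fit. They were 2 and 6 without late 1-cell control replicate 1, 1 and 6 without replicate 2, 56 and 74, 26 and 40, and 40 and 78 without early 2-cell knockout replicate 1, 2 or 3, and 317 and 393 when all 26 total RNA libraries entered the fit. The largest positive differences were at the Dux locus. Duxf3 measured 1.39, 2.52 and 2.33 FPKM in late 1-cell and 19.2, 22.2 and 27.5 FPKM in early 2-cell knockouts, so that its change exceeded the control change by 2.60 ± 0.34 (adjusted p of 0.00975 in limma). AW822073 measured 1.71, 1.83 and 2.99 FPKM and then 25.8, 29.0 and 30.1 FPKM, a difference of 2.703 ± 0.25 (adjusted p of 0.00154). For both genes every early 2-cell knockout library lay above every control library. Only the Duxf3 call without late 1-cell control replicate 2 failed among single libraries left out (adjusted p of 0.0919).

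In other genes the control change was the higher one. Pramel7, known for holding cells in the naive state, measured 0 and 0.0328 FPKM and then 5.41, 6.06 and 6.37 FPKM in controls, against 0.389, 0.108 and 0.178 FPKM in early 2-cell knockouts (difference of -2.51 ± 0.25, adjusted p of 0.00173). Platr31, a non-coding RNA, was listed at 0 in both late 1-cell controls and measured 9.66, 11.7 and 12.7 FPKM in early 2-cell controls, against 2.90, 1.55 and 2.05 FPKM in knockouts, where it also rose (1.57 ± 0.19, adjusted p of 6.02e-05 in limma), but less (-2.05 ± 0.29). Gpx1, a glutathione peroxidase gene, rose from 1.79 and 1.35 FPKM to 8.04, 4.94 and 7.84 FPKM in controls, while knockouts had 7.11, 4.62 and 5.75 FPKM before and 4.43, 2.83 and 5.55 FPKM after (-1.999 ± 0.35). Rpsa reached only 3.64, 3.07 and 2.40 FPKM in knockouts (-1.902 ± 0.23). In the other direction Stom and Hddc2 fell less in knockouts: Stom went from 69.0 and 67.4 to 10.8, 13.5 and 12.3 FPKM in controls and to 26.1, 34.4 and 26.3 FPKM in knockouts (1.26 ± 0.18), and Hddc2 from 7.95 and 7.76 to 0.888, 0.428 and 0.340 FPKM in controls and from 3.43, 4.16 and 3.51 to 1.64, 1.09 and 1.62 FPKM in knockouts (1.58 ± 0.27). The calls of Stom, Hddc2, Platr31 and Gpx1 were lost without either late 1-cell control library, with adjusted p of 0.114 to 0.289. With the replicate number as a block they were lost too, at 0.0761 for Stom, 0.122 for Hddc2, 0.0809 for Platr31 and 0.058 for Gpx1. Hddc2 and Gpx1 were also lost without any 1 of the late 1-cell knockout libraries (0.0956 to 0.123), and Stom without replicate 2 or 3 of them (0.072 and 0.0609).

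**Figure D5:**
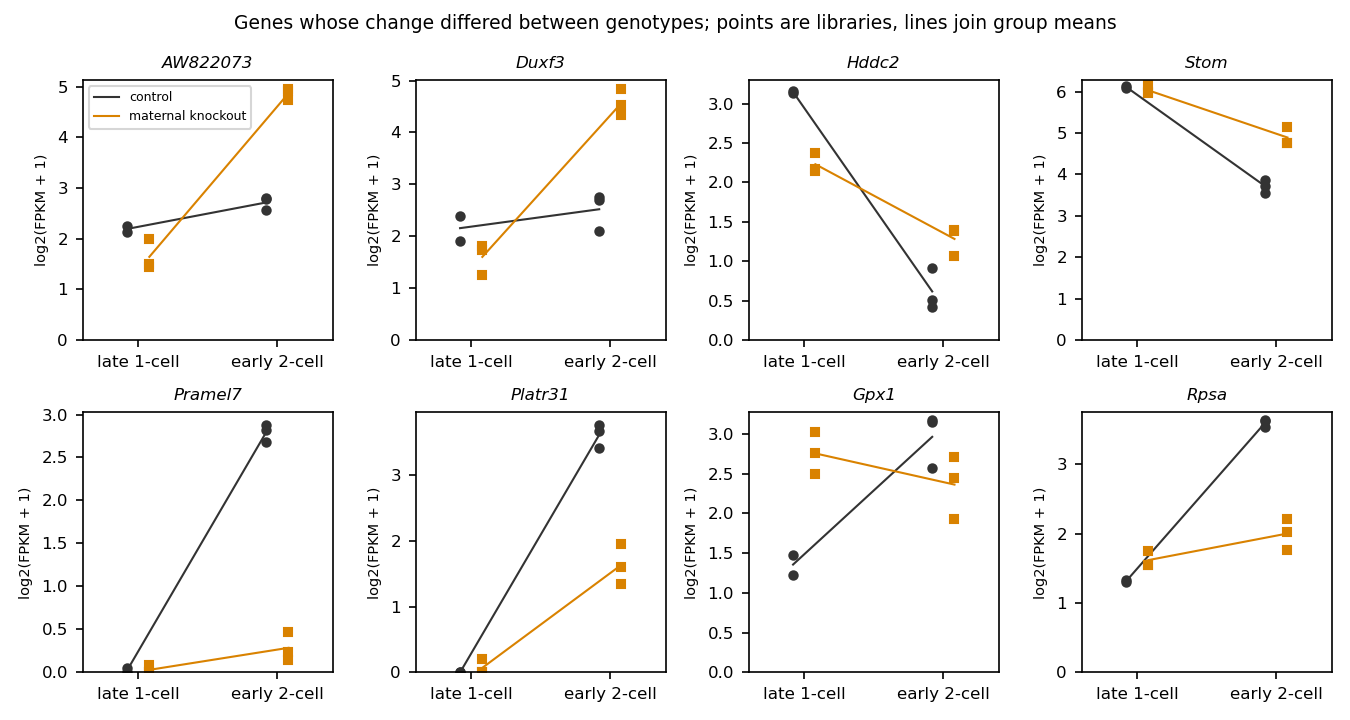
Points are log2(FPKM + 1) per library of 8 genes at the late 1-cell and early 2-cell stage in controls (circles) and maternal knockouts (squares), with lines joining group means. AW822073 and Duxf3 rise more in knockouts, and Pramel7, Platr31 and Rpsa rise more in controls. Gpx1 rises in controls from a lower late 1-cell mean (1.57 against 5.83 FPKM) and does not rise in knockouts.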

How the data were processed

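Total RNA of mouse oocytes and embryos was sequenced from SMART-Seq Stranded libraries, per the labels' protocols. The authors deposited FPKM values of 55401 genes in 26 total RNA libraries, and no read counts were used here. The submitters' processing notes name Trim Galore 0.6.6, STAR 2.7.9, StringTie 2.1.7 and the mm10 build. The annotation and the strand setting of the counting are not given in the sources used here, so overlapping and antisense genes may share reads. Positions came from GENCODE M21, which held 54349 of the gene IDs in the same version and 55141 in any. Promoter sequences came from RefSeq.

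Genes reaching 1 FPKM in 2 or more of 11 libraries (4 groups of late 1-cell and early 2-cell embryos) were fitted as log2(FPKM + 1) with limma 3.58.1 (R 4.3.3, empirical Bayes with trend), with Benjamini-Hochberg adjustment over all 12770 genes. The script was tested on simulated data. Named genes were the 10 that rose and 10 that fell most with non-overlapping groups and a mean of 5 FPKM or more in either group, without predicted, clone or small RNA names, the most changed members of each list and those needed to describe it, the 3 largest genotype differences in each direction, and Bap1. The rule on clone names did not cover names that begin with AF, so AF067061 stayed among the 10 that rose most. Other names were chosen after their values were seen. The members and lists were chosen with earlier results of these data known. Alternatives covered the pseudocount, filters, scaling, libraries, variance model, replicate block and each library left out. The poly(A) libraries of embryonic day 6.5 were not used.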

Additional observations from a re-analysis of the deposited data

Results flagged for a closer look

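For 16 genes named in the lists or by size, the step from late 1-cell to early 2-cell differed between genotypes by the test of the difference itself (limma, adjusted p under 0.05). Values are the knockout change minus the control change on the log2 scale. The change was higher in knockouts for AW822073 (2.703), Duxf3 (2.60), Hddc2 (1.58), Stom (1.26) and Klf17 (0.63). It was lower in knockouts for Pramel7 (-2.515), Platr31 (-2.05), Gpx1 (-1.999), Obox6 (-1.95), Snrpc (-1.94), Rpsa (-1.902), Rps26 (-1.88), Rplp0 (-1.32), Rpl26 (-1.29), Rplp2 (-1.12) and Hspa8 (-1.04).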

How the results depend on the processing

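Of 4011 values of 170 named genes recomputed under the alternatives, 3878 kept their direction and their side of the threshold. After quantile normalization the control change was 0 for Zbed3, -0.18 for Obox1, -0.38 for Btg4 and for Dppa3, and -0.15 for mt-Cytb. After rescaling to TPM it was -0.0912 for Rpl26, -0.0054 for Rps26 and -0.14 for Bap1. Bap1, which was not called, was also at -0.0239 after TPM rescaling without short genes, and between -0.0449 and 0.1046 with single libraries left out, lowest without early 2-cell control replicate 2. The cause was not tested.

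Genes higher in controls numbered 1303 with a mean of at least 5 FPKM, 982 with a 2-fold limit and 1484 to 2355 with single libraries left out, and those higher at least 2-fold numbered 333 with a mean of at least 5 FPKM. Genes lower in controls numbered 1971 with the 2-fold limit, and those lower at least 2-fold 3081 after TPM rescaling and 1286 after median centring. In knockouts, genes higher numbered 3632 after median centring and 628 with the 2-fold limit, and genes lower 2598 after median centring, 2619 with a mean of at least 5 FPKM and 1667 with the 2-fold limit.

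The genotype difference was higher in 48 genes with no filter, 36 after median centring, 317 with all 26 libraries, 6 without the trend, 58 with stage weights, 7 with the 2-fold limit and 1 to 56 with single libraries left out. It was lower in 393 with all 26 libraries, 96 with stage weights and 6 to 78 with single libraries left out. With the replicate number as a block 2113 genes were higher and 3752 lower in controls, and the genotype difference was higher in 6 and lower in 15. Deviations from group means correlated with r of -0.007 and -0.003 for same-numbered control libraries. With 2 late 1-cell controls the deviations mirror each other, so these values can neither show nor exclude pairing. In knockouts r was 0.12, 0.028 and 0.137 for same numbers and -0.165 to 0.058 for different numbers. The labels do not say that numbers pair samples, so the main fit did not take them as pairs. Depth is unknown, and with 2 late 1-cell control libraries the spread rests mostly on the other groups.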
